A study of Homo sapiens with 4 samples.

Results

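The MYC and MAX network is a set of basic helix-loop-helix leucine zipper transcription factors, and 10 of its genes are described here: MYC, MAX, MXD1, MXD3, MXD4, MXI1, MNT, MLX, MLXIP and MGA. They were picked out by gene symbol, as members of this protein network. All 10 were found among the 20515 genes of the count table and all 10 passed the filter on low counts, which kept 18369 genes. The libraries are poly(A) RNA from T47D, a long-established luminal breast cancer cell line of human origin. There were 2 control libraries, labelled as having no treatment, and 2 libraries from cells treated with baicalein, a flavone from Scutellaria roots that inhibits lipoxygenases. The sources used here give no dose, duration or vehicle, and a single cell line was used. The labels do not tell whether replicate libraries stem from separate cultures, and all p-values therefore rest on a between-sample spread that may be technical.

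MAX is the shared partner of the network. MYC binds DNA as a heterodimer with MAX at E-boxes, whose canonical form reads CACGTG, and recruits activating cofactors that raise growth and proliferation genes. The MXD proteins (MXD1, MXI1, MXD3 and MXD4) and MNT compete for MAX and bind similar sites, but recruit SIN3 and histone deacetylases, and MXD1 in particular is known from cells that stop dividing and differentiate. MGA joins MAX to a variant Polycomb complex, PRC1.6. MLX is a MAX-like partner of the glucose-responsive factors MLXIP (MondoA) and MLXIPL (ChREBP), and it can also pair with some MXD proteins. In luminal breast cancer cells MYC is known as an estrogen-induced driver of the cell cycle.

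Total counts ranged from 38597207 to 56732569 per library, so that 1 CPM (the depth-scaled count, here with TMM-adjusted library sizes) stood for 37.2 to 54.7 counts. Libraries of a group correlated at r = 0.995 over genes on the log2 CPM scale, and pairs across groups at 0.932 to 0.936. All 9 luminal markers checked were present in every library, with a summed level of 12879 to 14177 CPM in controls and 7295 to 7412 CPM after baicalein. This sum was mostly keratin RNA, and its members went both ways: 7 were lower, among them PGR and ESR1 (log2 fold changes -3.05 and -2.20), CDH1 was higher (0.94) and EPCAM did not pass (0.10). Of the 19 markers of basal, stromal, blood and endothelial cells, 7 had a row. None of the 4 endothelial markers had one, and the leukocyte markers PTPRC and CD68 together stayed at 0.296 to 0.510 CPM. The stromal pair COL1A1 and COL1A2 summed to 90.1 to 100 CPM in controls and 140 to 150 CPM after baicalein, with COL1A2 at 0.106 CPM or less, and the basal markers to 36.5 to 37.3 and 22.6 to 23.1 CPM. The part of these differences in the results below was not tested. CYP1A1, which codes for a xenobiotic-metabolising enzyme and is induced through the aryl hydrocarbon receptor, had 0.910 and 0.766 CPM in controls and 1212 and 1314 CPM after baicalein.

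Promoter sequences from RefSeq (GRCh38.p14) matched 9 of the 10 genes, all but MYC. They are shown because CACGTG is the sequence that dimers of the network bind. In windows reaching from 250 bases before to 50 bases after an annotated start, CACGTG, which reads the same on both strands, was present at MNT, MLX and MXD4, that is at 3 of 9 genes. The same was true of 8.78% of all 27305 genes with an entry, and of 7.23% of 34943 windows. Below are the 250 bases before the start at those 3 genes and at MXD1, which had the largest rise among the 10 genes and no match, written 5′ to 3′ on the strand of the gene with CACGTG in capitals. The RefSeq start used for MXD1 lies inside the longer GENCODE gene model given below. The matches begin 193 bases (MNT), 50 bases (MLX) and 238 bases (MXD4) before the start.
MNT, chr17:2401061-2401310, minus strand: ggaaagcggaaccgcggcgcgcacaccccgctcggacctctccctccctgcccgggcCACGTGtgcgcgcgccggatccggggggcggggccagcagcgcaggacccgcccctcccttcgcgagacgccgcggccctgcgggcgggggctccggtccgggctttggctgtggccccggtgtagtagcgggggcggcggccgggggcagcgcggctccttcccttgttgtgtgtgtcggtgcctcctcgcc
MLX, chr17:42566850-42567099, plus strand: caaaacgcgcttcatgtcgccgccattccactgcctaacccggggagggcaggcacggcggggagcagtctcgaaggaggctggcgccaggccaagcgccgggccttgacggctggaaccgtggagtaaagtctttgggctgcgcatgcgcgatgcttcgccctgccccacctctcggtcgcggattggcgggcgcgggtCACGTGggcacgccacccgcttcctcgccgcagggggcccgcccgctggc
MXD4, chr4:2262110-2262359, minus strand: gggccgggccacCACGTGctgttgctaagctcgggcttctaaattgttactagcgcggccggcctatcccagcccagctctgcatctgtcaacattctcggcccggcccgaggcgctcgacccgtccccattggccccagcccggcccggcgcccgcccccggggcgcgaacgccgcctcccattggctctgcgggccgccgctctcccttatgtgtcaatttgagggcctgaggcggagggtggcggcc
MXD1, chr2:69914859-69915108, plus strand: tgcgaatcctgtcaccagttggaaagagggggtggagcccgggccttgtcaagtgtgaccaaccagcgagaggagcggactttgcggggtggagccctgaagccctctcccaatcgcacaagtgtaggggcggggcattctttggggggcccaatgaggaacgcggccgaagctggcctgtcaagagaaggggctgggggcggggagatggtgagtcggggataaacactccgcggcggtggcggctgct
The 3 genes with the hexamer did not move together: MNT rose, while MLX and MXD4 were slightly lower after baicalein, as given below. The motif TNGCGTG, a form of the element bound by the aryl hydrocarbon receptor and searched on both strands, was present at MXD3 and MLX and in 5.50% of all windows. TGATGNAA, a form of the element bound by ATF4 and C/EBP dimers, was found at none of the 9 genes and in 3.62% of all windows. A match describes letters in these windows only.

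All 10 network genes passed the test between baicalein and control, 7 higher and 3 lower. With p-values from edgeR (quasi-likelihood F test, Benjamini-Hochberg adjusted over all genes) and a threshold of 0.05, 75.0% of the 18369 tested genes passed, 37.4% higher and 37.6% lower, so passing the threshold is in itself common in this comparison. The median log2 fold change was 0.71 over the network and 0.00 over all tested genes. MXD1 rose the most and MXD3 fell the most. Changes of at least 2-fold were called for MXD1, MNT and MAX among the higher genes, against 12.2% of all genes, and for MXD3 among the lower, against 15.2%. For each of the 10 genes the values of the 2 groups did not overlap, which held for 86.9% of all tested genes. The coefficient of variation between replicate libraries was between 0.0747% and 6.22%, the highest being that of MYC after baicalein.

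**Figure D1:**
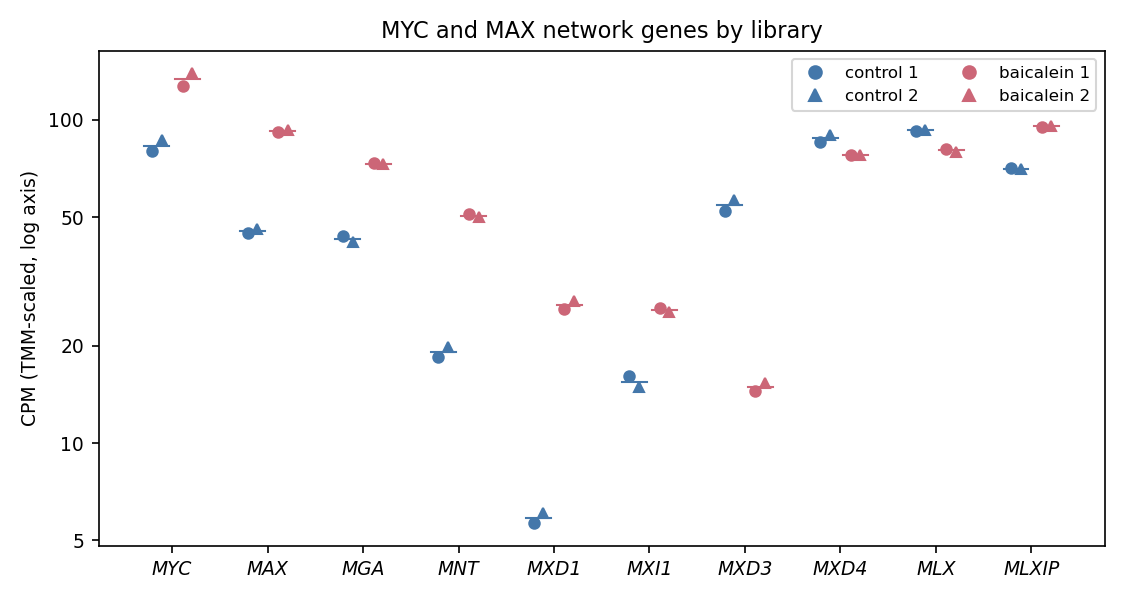
TMM-scaled CPM (log axis) of the 10 network genes in each library; circles are replicate 1, triangles replicate 2 and short lines group means. Baicalein values lie above control values for 7 genes and below them for MXD3, MXD4 and MLX, and the 2 groups do not overlap for any of them.

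MYC (ENSG00000136997, chromosome 8, positions 127735434 to 127741434 of GRCh38) had 80.2 and 86.5 CPM in the controls and 128 and 139 CPM after baicalein. Both treated libraries were thus above both controls. In bulk libraries like these, more cells of a kind and more RNA per cell cannot be told apart. The means were 83.3 ± 4.40 and 134 ± 8.30 CPM (SD, n = 2 each), a 1.6-fold rise (log2 fold change 0.68, SE 0.05, edgeR adjusted p = 1.72e-11). PVT1, the long non-coding RNA gene next to MYC, went from 33.8 and 33.8 to 37.8 and 39.4 CPM (log2 fold change 0.19, SE 0.05, edgeR adjusted p = 0.00295). This call was lost with library totals as the scaling (adjusted p = 0.152) and without baicalein replicate 2 (0.0614).

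MAX (ENSG00000125952, chromosome 14, positions 65006174 to 65102695) had 44.7 and 46.1 CPM in the controls and 91.9 and 93.4 CPM after baicalein. The replicates lay close together and the groups far apart, with a 2.04-fold rise (log2 fold change 1.03, SE 0.05, edgeR adjusted p = 5.55e-15). Per kilobase of exon, the level of MYC was 2.65 and 2.77 times that of MAX in the controls and 2.05 and 2.20 times after baicalein. For such ratios the smallest two-sided p of an exact permutation test with 2 against 2 libraries is 0.333, so they are given as values.

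The MYC paralogs differed from MYC and from each other. MYCL, a paralog known from small cell lung cancer, had 4.02 and 3.66 CPM in the controls and 17.8 and 19.0 CPM after baicalein (log2 fold change 2.26, SE 0.09, edgeR adjusted p = 9.69e-16). It was thus 4.78-fold higher, from a level far below that of MYC. MYCN, the paralog amplified in neuroblastoma, was near the limit of detection in all libraries, with 16 and 17 counts in the controls and 0 and 2 counts after baicalein. Its summed ratio of control over baicalein was 16.1, with a 95% exact binomial interval of 4.12 to 138 that covers counting error only. Among other E-box factors with the same fold, USF1 fell (log2 fold change -0.51, edgeR adjusted p = 5.26e-09). TFAP4 (0.08, edgeR adjusted p = 0.456) and USF2 (-0.02, 0.763) did not pass.

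Among the antagonists, MXD1 (ENSG00000059728, chromosome 2, positions 69897688 to 69942945) was the least abundant network gene in controls, with 5.65 and 6.08 CPM. After baicalein it had 26.0 and 27.6 CPM. Both treated values were more than 4 times the higher control value, and the fitted rise was 4.56-fold (log2 fold change 2.19, SE 0.08, edgeR adjusted p = 1.29e-16). Its annotated exons share 237 of 6351 bases with SNRNP27 on the same strand, a gene whose log2 fold change was 0.42.

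MNT (ENSG00000070444, chromosome 17, positions 2384060 to 2401118), the most broadly expressed antagonist, had 18.5 and 19.8 CPM in the controls and 51.1 and 49.9 CPM after baicalein. It rose 2.65-fold (log2 fold change 1.40, SE 0.06, edgeR adjusted p = 6.73e-16). MXI1 (ENSG00000119950, chromosome 10, positions 110207605 to 110287365), also known as MXD2, had 16.1 and 14.9 CPM in the controls and 26.1 and 25.5 CPM after baicalein. The increase of 1.67-fold was smaller than that of MXD1 or MNT (log2 fold change 0.74, SE 0.07, edgeR adjusted p = 1.41e-09).

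MXD3 (ENSG00000213347, chromosome 5, positions 177301461 to 177312757) went the other way. This family member is known, unlike MXD1, from cells in S phase. It had 52.4 and 56.5 CPM in the controls and 14.5 and 15.4 CPM after baicalein, a 3.66-fold fall (log2 fold change -1.87, SE 0.06, edgeR adjusted p = 1.30e-17). Of its 5154 annotated exon bases 1158 lie opposite PRELID1 and 926 are shared with RAB24 on the same strand. RAB24 had 59.0 and 62.0 CPM in the controls and 196 and 189 CPM after baicalein, the opposite direction to MXD3, and PRELID1 had a log2 fold change of -0.25. The sources used here do not say if counting was by strand, and the part of shared reads in the MXD3 values was not tested.

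MXD4 (ENSG00000123933, chromosome 4, positions 2247432 to 2262294) had 85.4 and 90.1 CPM in the controls and 78.0 and 77.7 CPM after baicalein. The difference was small against the other antagonists (log2 fold change -0.17, SE 0.05, edgeR adjusted p = 0.00168). Its call was lost without baicalein replicate 2 (adjusted p = 0.0565). A test against a 1.5-fold change called 6 network genes higher and MXD3 lower, where 16.8% and 19.5% of all genes were called. MXD4, MLX and MLXIP did not pass it.

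**Figure D2:**
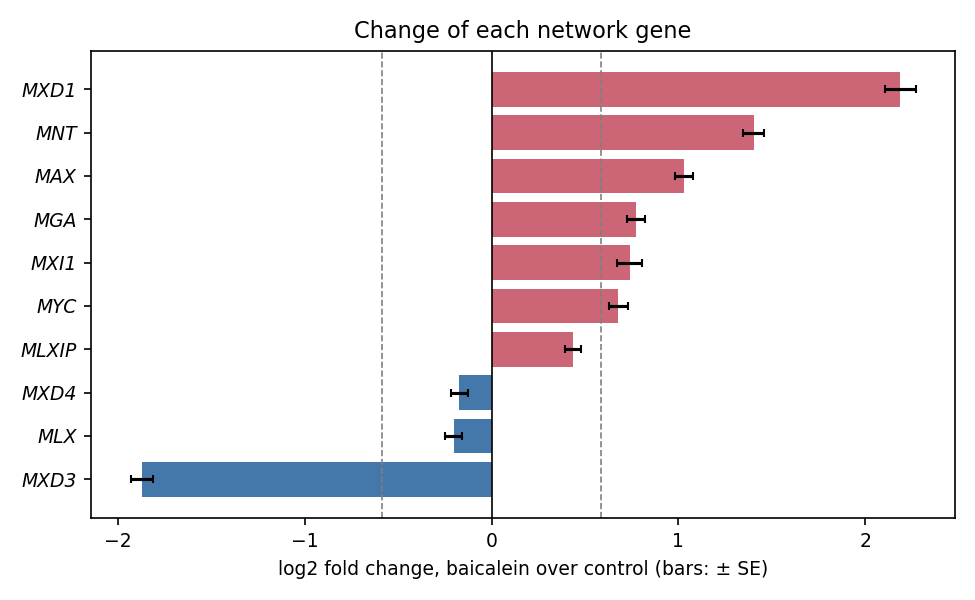
Log2 fold change of baicalein over control for each network gene. Bars are ± 1 SE derived from edgeR's F statistic, and dashed lines mark a 1.5-fold change. MXD1 (2.19) and MXD3 (-1.87) stand at the 2 ends, and MLXIP, MXD4 and MLX lie inside the dashed lines.

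Levels of different genes were compared as RPKM, that is CPM per kilobase of the merged exons of all annotated isoforms, a scale that is approximate where a cell uses only some isoforms. MYC was the most abundant network gene in both groups, at 27.8 ± 1.47 RPKM in controls and 44.5 ± 2.77 RPKM after baicalein. In controls it was followed by MLX (21.8 RPKM), MXD4 (12.4), MXD3 (10.6), MAX (10.3), MLXIP (5.08), MXI1 (3.36), MGA (2.43), MNT (2.19) and MXD1 (0.924). Only MXD3 and MAX, among neighbours in this order, had overlapping libraries. After baicalein the order in RPKM was MYC, MAX (20.9), MLX (18.9), MXD4 (11.0), MLXIP (6.88), MNT (5.79), MXI1 (5.60), MXD1 (4.22), MGA (4.15) and MXD3 (2.90), and MXD1 and MGA overlapped. MAX thus moved from rank 5 to rank 2, MXD3 from rank 4 to rank 10 and MXD1 from rank 10 to rank 8.

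Within the antagonist pool MXD3 lay above MXD1 in the controls and below it after baicalein. Summed over MXD1, MXI1, MXD3 and MXD4 the level was 26.7 and 27.9 RPKM in the controls and 23.6 and 23.9 RPKM after baicalein, lower in both treated libraries. MXD3 held 38.2% and 39.3% of the summed RPKM of the 4 MXD genes in the controls and 11.9% and 12.5% after baicalein. MXD1 held 3.34% and 3.43% in the controls and 17.3% and 18.2% after baicalein, and MXI1 went from 13.1% and 11.6% to 24.0% and 23.2%. The share of MXD4 was 45.4% and 45.7% before and 46.8% and 46.1% after. In each control library MXD3 was 11.4 times as abundant as MXD1 in RPKM, and in each treated library 0.685 to 0.688 times. The part of reads shared with RAB24 and PRELID1 in these MXD3 levels was not tested. With MNT added, the pool summed to 28.8 and 30.2 RPKM in the controls and 29.5 and 29.6 RPKM after baicalein, so that the groups overlapped. The ratio of MYC to this sum was 0.929 and 0.954 in the controls and 1.44 and 1.57 after baicalein. These are sums of RNA levels and say nothing of protein.

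**Figure D3:**
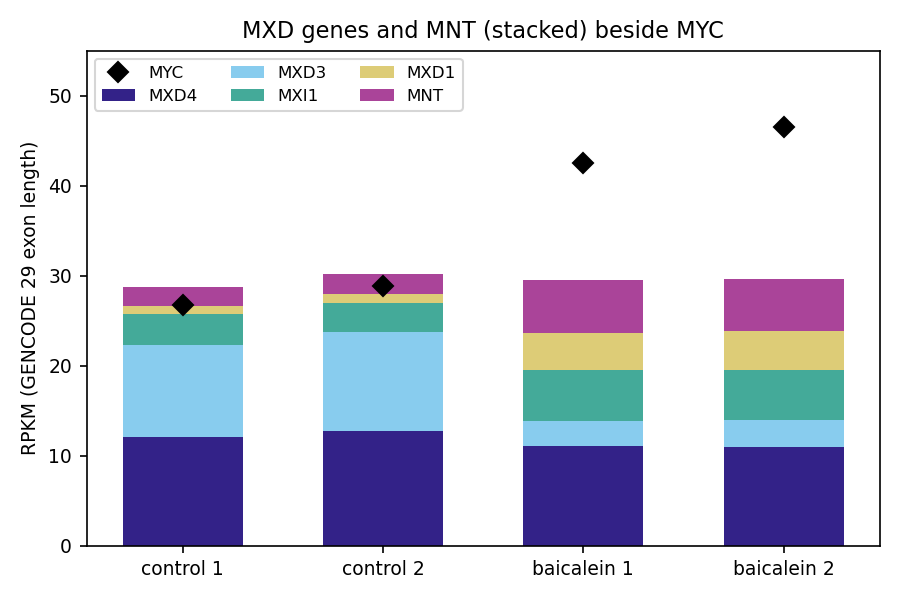
Stacked RPKM of MXD4, MXD3, MXI1, MXD1 and MNT in each library, with the RPKM of MYC as a diamond. The stacks reach 28.8 to 30.2 RPKM in all 4 libraries, MXD3 takes a smaller part after baicalein, and MYC lies above the stack in the treated libraries only.

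MGA (ENSG00000174197, chromosome 15, positions 41621224 to 41773081), which combines a T-box with the MAX-binding domain, had 43.8 and 41.9 CPM in the controls and 73.3 and 73.2 CPM after baicalein. This was a 1.71-fold rise (log2 fold change 0.77, SE 0.05, edgeR adjusted p = 2.05e-12). Of its 11 tested partners in PRC1.6, 3 were higher (27.3%) and 5 lower (45.5%), against 37.4% and 37.6% of all genes, with a median log2 fold change of -0.07. RYBP, E2F6 and YAF2 rose with 0.86, 0.55 and 0.43. The lower genes were TFDP1 (-1.40), CBX3 (-0.84), PCGF6 (-0.67), WDR5 (-0.39) and CBX1 (-0.32). PCGF6, the subunit that defines this complex, had 10.7 and 9.44 CPM in the controls and 6.33 and 6.31 CPM after baicalein.

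MLX (ENSG00000108788, chromosome 17, positions 42567068 to 42573239) had 92.6 and 93.2 CPM in the controls and 81.4 and 79.9 CPM after baicalein. The decrease was 1.15-fold (log2 fold change -0.20, SE 0.04, edgeR adjusted p = 0.000217). Of its 4259 exon bases 770 lie opposite PSMC3IP, whose log2 fold change was -1.77. PSMC3IP had 38.0 and 38.8 CPM in the controls and 10.7 and 11.9 CPM after baicalein, the same direction as MLX. The part of shared reads in the MLX values was not tested. MLXIP (ENSG00000175727, chromosome 12, positions 122078722 to 122147347) had 71.1 and 70.3 CPM in the controls and 95.3 and 96.0 CPM after baicalein, a 1.35-fold rise (log2 fold change 0.44, SE 0.04, edgeR adjusted p = 6.32e-09). The partner MLXIPL had 35.5 and 38.2 CPM in the controls and 35.3 and 35.2 CPM after baicalein and did not pass (log2 fold change -0.06, edgeR adjusted p = 0.309). It passed as lower with library totals as the scaling (adjusted p = 0.0101) and without control replicate 1 (0.0320). In RPKM, MLX stood at 2.15 and 2.10 times MAX in the controls and at 0.921 and 0.889 times MAX after baicalein.

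Of 7 tested targets of the MLX heterodimers 5 were higher and 1 lower (71.4% and 14.3%, against 37.4% and 37.6% of all genes), with a median log2 fold change of 0.64. TXNIP, which codes for an inhibitor of thioredoxin and of glucose uptake and is the best known MondoA target, had 33.0 and 30.6 CPM in the controls and 109 and 119 CPM after baicalein (log2 fold change 1.84, SE 0.05, edgeR adjusted p = 1.74e-18). Its relative ARRDC4 had 5.69 and 4.91 CPM in the controls and 22.1 and 22.9 CPM after baicalein (log2 fold change 2.08, SE 0.09). The hexokinase gene HK2 rose alongside with a log2 fold change of 2.09, KLF10 with 0.64 and ACACA with 0.22. PFKFB3, which codes for a glycolytic regulator, fell with -1.04, and FASN did not pass (0.04). The promoter windows of 4 of the 6 genes with an entry held CACGTG, against 8.78% of all 27305 genes with an entry. This list was drawn up from known targets of dimers that bind this sequence, so the share describes the list only.

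Of 16 tested MYC cofactors 5 were higher (31.2%) and 10 lower (62.5%), against 37.4% and 37.6% of all genes, with a median log2 fold change of -0.25. The acetyltransferase gene KAT5 rose from 44.2 and 47.7 to 70.3 and 73.6 CPM (log2 fold change 0.65, SE 0.05). Of the KAT5 exon bases 38.6% lie opposite RNASEH2C, and the part of shared reads was not tested. The elongation factor gene SUPT5H rose with 0.47, and CCNT1 and EP400 with 0.35 and 0.27. HCFC1 (-0.75), RUVBL1 (-0.60) and ACTL6A (-0.59), which code for a MYC-binding host cell factor and for subunits of remodelling complexes, had the largest falls. ZBTB17, which codes for MIZ1, the partner of MYC in repression, did not pass (-0.08, edgeR adjusted p = 0.263).

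The corepressors that MXD and MNT recruit were lower more often than higher. Of 18 tested SIN3 and NCOR complex genes 2 were higher and 11 lower, against 37.4% and 37.6% over all genes, with a median log2 fold change of -0.23. The histone-binding gene RBBP7 fell from 470 and 460 to 187 and 185 CPM (log2 fold change -1.32, SE 0.04). ING2 and the deacetylase gene HDAC1 fell with -1.26 and -0.70. The genes that rose were the scaffold SIN3B, from 45.4 and 48.7 to 87.5 and 84.0 CPM (log2 fold change 0.87), and NCOR1 (0.56). SIN3A, the paralogous scaffold, was lower with -0.24.

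Among 20 regulators of MYC protein stability 8 were higher (40.0%) and 9 lower (45.0%), shares near the 37.4% and 37.6% over all genes, with a median log2 fold change of -0.02. On the side of degradation, FBXW7, the ubiquitin ligase subunit that recognises phosphorylated MYC, rose from 15.4 and 15.8 to 27.5 and 27.0 CPM (log2 fold change 0.81, SE 0.07). GSK3B, which codes for the kinase that primes that recognition, rose with 1.05. Another ligase subunit gene, SKP2, fell from 67.2 and 62.2 to 20.1 and 19.4 CPM (-1.71). On the side of stabilisation, the nucleolar deubiquitinase gene USP36 rose from 77.1 and 78.8 to 254 and 259 CPM (1.72, SE 0.04), whereas the phosphatase inhibitor gene CIP2A and the mitotic kinase gene AURKA fell with -1.72 and -1.43.

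Of 13 tested upstream regulators of the MYC gene and its transcript 5 were higher and 5 lower (38.5% each), near the shares over all genes (37.4% and 37.6%). The fallen ones included E2F1, a cell cycle factor that acts on the MYC promoter, from 111 and 118 to 7.75 and 8.0 CPM, and the immediate early gene EGR1, from 4.25 and 4.89 to 0.549 and 0.456 CPM. The RNA-binding protein gene ELAVL1 fell with a log2 fold change of -0.45. NOTCH1 rose with 0.63 and STAT3 with 0.36. With library totals as the scaling and without baicalein replicate 2 the higher genes numbered 3 in place of 5.

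The targets that MYC is known to induce did not move one way: of 76 tested, 33 were higher and 35 lower, against 37.4% and 37.6% over all genes, with a median log2 fold change of 0.07. In ribosome biogenesis and the nucleolus 18 of 36 were higher and 12 lower (50% and 33.3%, median 0.14), with most changes under 2-fold. RRP12, a ribosomal RNA processing factor gene, rose from 66.1 and 73.9 to 149 and 151 CPM (log2 fold change 1.10, SE 0.05), the nucleolar helicase gene DDX21 with 1.06 and RRP9 with 0.92. NOP56, a core gene of box C/D ribonucleoproteins, fell from 212 and 226 to 109 and 106 CPM (-1.03, SE 0.05), and NOC4L and LAS1L fell with -0.63 and -0.55.

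In the list of metabolism and growth 13 of 28 targets were higher and 13 lower (46.4% each, median -0.01). HK2 had 16.9 and 17.7 CPM in the controls and 70.7 and 76.3 CPM after baicalein. AIMP2, a scaffold gene of the tRNA synthetase complex, and the mitochondrial folate enzyme gene MTHFD2 rose with log2 fold changes of 1.40 and 1.23. Falls were led by DCTPP1 (-1.52), which codes for a nucleotide pool enzyme, the folate carrier gene SLC19A1 (-1.39) and the prothymosin gene PTMA, from 881 and 926 to 390 and 372 CPM (-1.25). Of the AIMP2 exon bases 28.9% lie opposite EIF2AK1, and of those of DCTPP1 42.1% lie opposite ZNF771. The part of shared reads in these values was not tested.

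Of 12 tested cell cycle targets 10 were lower (83.3%, against 37.6% of all genes) and 8 of them at least 2-fold (against 15.2%), with a median log2 fold change of -2.33. E2F2 fell from 27.6 and 30.6 to 1.57 and 1.18 CPM (log2 fold change -4.37, SE 0.11, edgeR adjusted p = 1.99e-19). TERT, which codes for the telomerase catalytic subunit, fell with -4.25 (SE 0.33), from 100 and 121 counts to 4 and 7 counts. These treated counts lie near the limit of detection, so the size of its fall is uncertain. The replication licensing gene MCM5 fell with -3.06 and the cyclin E gene CCNE1 with -2.67. The higher ones were CUL1 (0.16) and CDK4 (0.12), of whose exon bases 43.2% lie opposite TSPAN31, and both calls were lost with library totals as the scaling (adjusted p = 0.320 and 0.666) and without baicalein replicate 2 (0.0917 and 0.0744). That of CDK4 was also lost without baicalein replicate 1 (0.167) and with upper-quartile factors (0.0598).

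Of 11 genes that MYC is known to repress 6 were higher and 4 lower, or 54.5% and 36.4% against 37.4% and 37.6% of all genes, with a median log2 fold change of 0.64. NDRG1, a gene also known from hypoxia, had 1.95 and 1.81 CPM in the controls and 67.9 and 78.4 CPM after baicalein (log2 fold change 5.28, SE 0.10). DDIT3, which codes for the stress factor CHOP, had 12.1 and 12.7 CPM in the controls and 372 and 434 CPM after baicalein (5.02, SE 0.08). Of the DDIT3 exon bases 27.2% lie opposite MARS, and the part of shared reads was not tested. GADD45A rose with 4.0, and the cyclin-dependent kinase inhibitor genes CDKN1A, CDKN2B and CDKN1B with 3.42, 2.53 and 0.64. THBS1, the gene of an anti-angiogenic matrix protein, fell from 711 and 739 to 106 and 100 CPM (-2.81), and NDRG2, CEBPA and ITGB1 fell with -2.36, -0.76 and -0.19. CDKN1C, at 0.376 to 0.425 CPM in all libraries, did not pass.

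**Figure D4:**
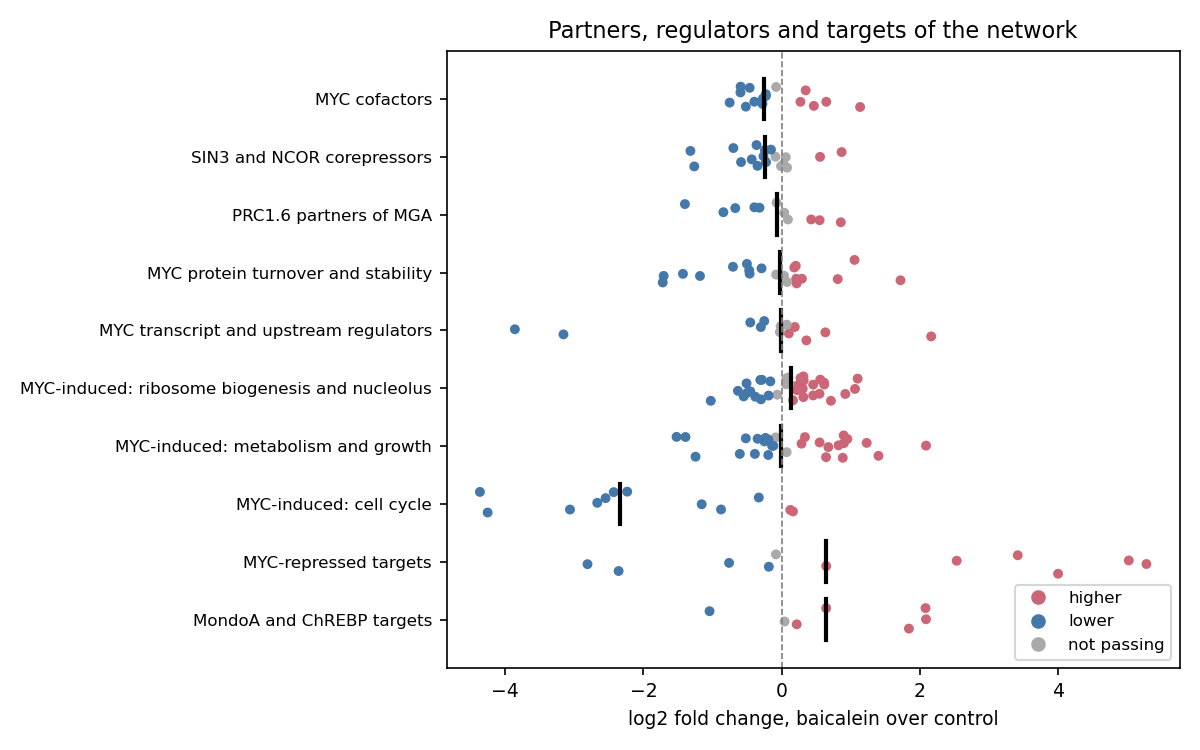
Log2 fold change of baicalein over control for each tested gene of the lists of partners, regulators and targets; red and blue points passed edgeR's test as higher and lower, grey points did not, black bars are list medians and the dashed line is the median of all tested genes. Cell cycle targets lie mostly to the left (median -2.33), while the other lists straddle 0.

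The promoter windows of the induced targets held CACGTG at 29 of 63 genes with an entry (46.0%), against 8.78% of all genes. Among those higher after baicalein it was present at 13 of 26, and among those lower at 12 of 30. Of the repressed targets, 0 of 8 with an entry held it. These lists were drawn up from known MYC biology, in which E-boxes took part, so the share is a description of the lists.

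The genes whose profile over the 4 libraries was nearest to that of MYC were PRRT3, SMN2 and KLF9. The Euclidean distance of their centred log2 CPM from that of MYC was 0.0290, 0.0404 and 0.0406, among 13327 genes with a symbol and a mean log2 CPM of at least 1. KLF9, a Krueppel-like factor gene, had 17.6 and 19.0 CPM in the controls and 29 and 30.6 CPM after baicalein. SMN2 has a near-identical copy, SMN1, so its count is uncertain. With 4 libraries in 2 groups this likeness rests on few values.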

How the data were processed

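Poly(A) RNA-seq reads were handled with cutadapt 2.3, FastQC 0.11.8, STAR 2.7.8a, RSEM 1.3.3 and DESeq2 1.34 on GRCh38, per the submitters' processing notes. The authors deposited raw gene counts as whole numbers for 20515 genes, each with a total of at least 10; the sources used here give neither annotation release nor strand setting. Symbols were matched for 20470 rows, and coordinates and exon lengths came from GENCODE 29. Genes passing edgeR's filterByExpr (minimum count 10, minimum total 15) were fitted with edgeR 4.0.16 (TMM, robust quasi-likelihood F test, R 4.3.3), 2 control against 2 baicalein libraries, with Benjamini-Hochberg adjustment over 18369 genes and a threshold of 0.05. The SE of a log2 fold change is its absolute value over the square root of the F statistic of that test. A floor of 3 counts is 0.0549 to 0.0805 CPM per library. Alternatives used DESeq2 1.42.0, limma 3.58.1 and other scalings, filters, thresholds and left-out libraries.

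The members and lists were chosen with earlier results of these data known. Within each list the text names the 3 largest rises and 3 largest falls that passed with a mean log2 CPM of at least 1, and for MYC the 3 nearest genes. A gene of the cofactor list that this rule names is not reported here. CCNT1, EP400, ZBTB17, SIN3A, WDR5, CBX1, TERT, KLF10, ACACA, FASN, ITGB1, the CDKN genes, the luminal markers and the genes with overlapping exons were named after their values were seen.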

Additional observations from a re-analysis of the deposited data

How the results depend on the processing

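Over 14 alternatives no gene past the threshold changed direction among the network genes and the others followed one by one. The genes listed above as named after their values were seen were not followed in this way. The count of network genes higher stayed at 6 or 7. A test against a 1.5-fold change gave 3090 genes higher and 3581 lower over all genes, 1 network gene lower, and 28 higher and 31 lower over the lists of partners, regulators and targets, in place of 6866, 6902, 3, 67 and 81. By list it gave, as higher and lower, 1 and 1 cofactors, 1 and 3 corepressors, 1 and 2 PRC1.6 genes, 3 and 5 turnover genes, 1 and 2 upstream regulators and 4 and 1 ribosome targets, 3 metabolism targets and 1 paralog or partner lower, 3 MondoA targets higher and 0 cell cycle targets higher. Leaving out each library in turn gave 6128 to 6944 genes higher and 6294 to 6896 lower over all genes, 7 network genes higher and 2 to 3 lower, and 62 to 73 and 74 to 84 over the lists; a group of 1 library was taken to have the spread of the other. The deviations of same-numbered libraries were not correlated (r = 0.01), which cannot tell whether these libraries were handled as pairs. The replicate block gave 6894 genes higher and 6909 lower, and 7 and 3 network genes. Library totals as the scaling moved the median of all genes by -0.10 on the log2 scale and the share of higher calls from 49.9% to 43.4%. It also left 5 turnover genes, 3 upstream regulators and 0 cell cycle targets higher and 4 paralogs and partners lower, in place of 8, 5, 2 and 2. Cell cycle targets higher numbered 1 with upper-quartile factors, a threshold of 0.01 or without baicalein replicate 1, and 0 without baicalein replicate 2. At least 50 counts in 2 libraries left 1 paralog or partner lower. The log2 fold change of MYCN, a gene near the limit of detection in all libraries, ranged from -7.13 to -2.64. The cause of this range and of the other shifts was not tested.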
